A study of Homo sapiens with 12 samples.

Results

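TOV21G is an established human cell line from a clear cell ovarian carcinoma, labelled epithelial and wild type. The response of these cells to ovarian cancer ascites, the fluid that collects in the abdomen of patients, was followed by sequencing RNA from 3 libraries of untreated cells and 3 of exposed cells, 6 in all, out of 12 libraries in a study that also included another ovarian cancer line. The 6 libraries were chosen by their labelled cell line and no measured value was used in the choice. Per the labels' protocols, 250000 cells were plated in 1.5 mL of DMEM with 10% fetal bovine serum, and the exposed wells received 150 µL of ascites (10%) for 16 h. The labels describe no fluid added to the control wells, do not say whether the ascites came from 1 patient or several, and do not say whether the 3 libraries of a group came from separate cultures. The p-values therefore measure the spread between these libraries, which may be technical.

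Ascites carries lipoproteins, cytokines, growth factors and cell debris, and tumour cells shed into the abdomen live in it. NF-kB is a family of transcription factors held in the cytoplasm by inhibitor proteins. Signals such as TNF or interleukin-1 lead to the loss of the inhibitors, and NF-kB then switches on chemokines, cytokines, survival genes and its own inhibitors. SREBP factors are held in the endoplasmic reticulum by INSIG proteins while membranes are rich in sterol. When sterol is low they are cut free and switch on cholesterol synthesis, lipoprotein uptake and fatty acid desaturation, so that added lipoprotein is known to lower these genes in cultured cells.

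Promoter windows of called genes that hold a motif are shown first, because these factors read short DNA motifs. RefSeq promoter sequences (GRCh38.p14) held entries for 20 of the 22 genes that passed the test described below, and the 250 bases before each start were searched on both strands for 7 motifs. The NF-kB motif, searched first as GGNNTTTCC with 1 more G before it, was found in 5 of the 10 genes that rose and in 0 of the 10 genes with an entry that fell, against 2.585% of the 11065 tested genes with an entry. GGNNTTTCC itself, tried after the longer form and holding every match of it, was found in 6 of 10 and 0 of 10, against 7.763%. Most genes that rose belong to the NF-kB target and cytokine lists described below. Of the tested list members with an entry, the longer form was in 13 of 26 NF-kB targets and 8 of 13 chemokine and cytokine genes. The shorter form was in 17 and 9 of them, so the matches were not limited to genes that passed the test. Most tested members of both lists had higher values with ascites, called or not (28 of 29 and 17 of 20). The windows below run 5′ to 3′ on the gene's strand, with the match nearest the start in capitals, and other matches in a window, as in that of TNFAIP3, are left in lower case. They lie at chr6:137867179-137867238 (plus strand) for TNFAIP3, chr11:102317260-102317319 (plus) for BIRC3, chr4:74099239-74099298 (minus) for CXCL2, chr7:22727102-22727161 (plus) for IL6, chr1:202010474-202010533 (plus) for ELF3 and chr4:73740453-73740511 (plus) for CXCL8, which holds the shorter form.
TNFAIP3: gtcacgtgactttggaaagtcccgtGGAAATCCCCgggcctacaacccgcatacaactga
BIRC3: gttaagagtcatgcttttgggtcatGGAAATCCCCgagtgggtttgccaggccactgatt
CXCL2: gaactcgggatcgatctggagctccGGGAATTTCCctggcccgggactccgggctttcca
IL6: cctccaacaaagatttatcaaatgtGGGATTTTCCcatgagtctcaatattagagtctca
ELF3: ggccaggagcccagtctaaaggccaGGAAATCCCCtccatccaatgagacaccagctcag
CXCL8: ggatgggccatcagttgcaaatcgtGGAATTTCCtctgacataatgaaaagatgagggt

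For the genes that fell, the sterol element was first searched as TCACNCCAC, which was found in 1 of 10 (SREBF2), in 0 of 10 that rose and in 1.112% of tested genes. None of the 17 cholesterol synthesis genes with an entry held it. A shorter form contained in it, CACNCCAC, was tried after that result was seen, and was found in 5 of the 10 genes that fell (SCD, INSIG1, IDI1, SREBF2 and CRIP2), in 0 of 10 that rose and in 6.444% of tested genes. It was found in 2 of the 17 cholesterol synthesis genes and in 4 of 13 chemokine and cytokine genes, so the match was not limited to sterol genes. The CCAAT box, searched as ATTGG and its complement, was found in 8 of 10 genes that fell, 5 of 10 that rose, 14 of 17 cholesterol synthesis genes and 41.2% of tested genes. The last motifs were the cAMP response element TGACGTCA, found in 0 of 10 genes in either direction and in 3.389% of tested genes, and the AP-1 site TGANTCA, found in 2 of 10 that rose, 1 of 10 that fell and 5.865% of tested genes. The genes shown were chosen after the matches were seen, and a match is a description of the letters, not a measured binding site. The window of CRIP2, which is in none of the lipid lists, is not shown. The CACNCCAC windows lie at chr10:100347094-100347151 (plus strand) for SCD, chr7:155297645-155297702 (plus) for INSIG1, chr10:1048969-1049026 (minus) for IDI1 and chr22:41832948-41833005 (plus) for SREBF2.
SCD: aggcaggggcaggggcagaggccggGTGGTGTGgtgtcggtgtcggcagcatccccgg
INSIG1: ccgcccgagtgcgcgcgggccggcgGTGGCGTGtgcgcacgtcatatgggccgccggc
IDI1: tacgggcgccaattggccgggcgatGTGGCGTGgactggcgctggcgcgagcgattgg
SREBF2: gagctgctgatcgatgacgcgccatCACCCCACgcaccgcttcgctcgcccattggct

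The 6 libraries held 27199401 to 34491304 reads, and expression is given as the authors' normalised read count, a count divided by a size factor of its library. The clear cell marker PAX8 was present, at 6797 to 7309 normalised counts in the controls, while NAPSA, another clear cell marker, lay between 3.54 and 11.9 over the 6 libraries and was not tested. The libraries of a group differed from each other along 1 main axis, found by decomposing the log2 values centred within each group, and this axis held 54.3% of the within-group variance. Relative to its own group mean, control 1 (position -25.8) and ascites 2 (-21.7) each stood at one end, control 2 (22.7) and ascites 3 (17.1) at the other. Control 3 (3.08) and ascites 1 (4.61) lay near the middle. Because each group was centred on its own mean, these positions cannot show a shift between the groups. When the values were centred on the mean of all 6 libraries instead, the first axis held 51.2% of the variance. On it the controls stood at -34.7, 11.8 and -7.15 and the ascites libraries at 14.2, -10.6 and 26.5. Results that rest on the libraries at the ends of the within-group axis are given with and without them below. These libraries were picked for their distance from their own group means, so leaving them out can by itself lower the spread that the test uses. Counts of calls without them are descriptions and add no support.

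Nuclear-retained RNAs and mitochondrial transcripts moved along that axis in opposite directions. KCNQ1OT1, a long antisense RNA that stays on chromatin, had 95.4, 656 and 234 normalised counts in the controls and 731, 235 and 1511 in the ascites libraries. MALAT1, an abundant RNA of nuclear speckles, had 14363, 36224 and 22591 in the controls and 37574, 21436 and 66860 with ascites. The groups overlapped for both, and neither passed the test (log2 difference 1.38 ± 0.69 SE and 0.73 ± 0.38, limma adjusted p 0.763 for each). All 13 tested nuclear-retained RNAs had higher values towards the end of control 2 and ascites 3, as did 36.3% of all tested genes, while 12 of 13 mitochondrially encoded genes and 30 of 30 ribosomal protein genes had lower ones, as did 63.7% of all tested genes. Mitochondrially encoded genes took 1.45%, 1.19% and 1.59% of all normalised counts in the controls and 1.07%, 1.82% and 0.929% in the ascites libraries.

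**Figure D1:**
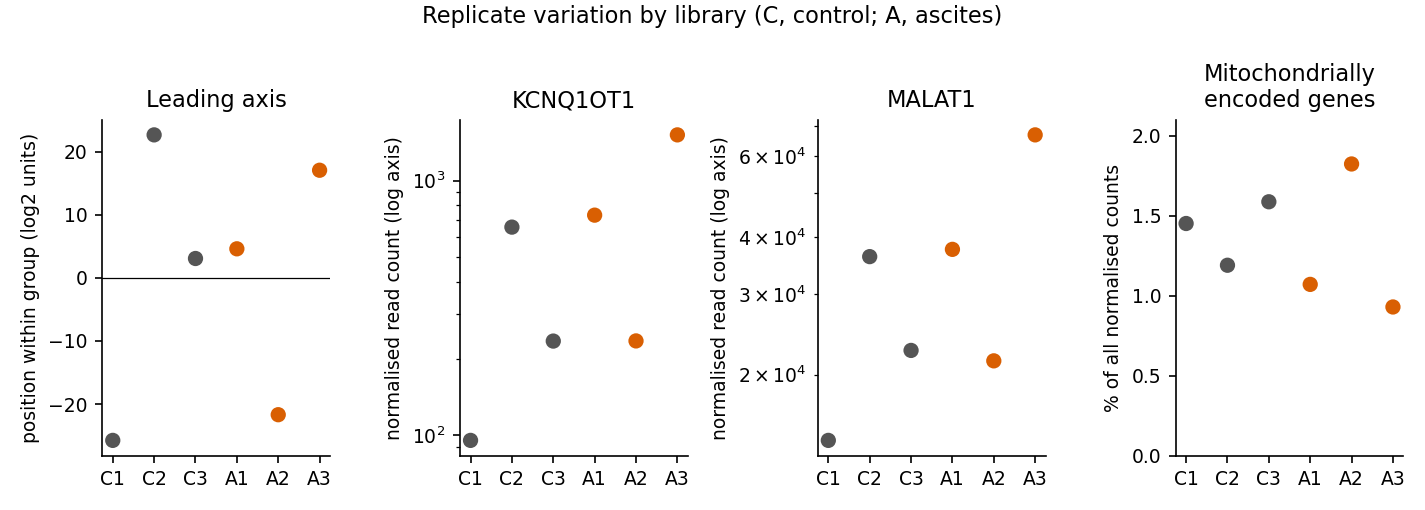
Position of each library on the leading within-group axis, the normalised read counts of KCNQ1OT1 and MALAT1 on log axes, and the share of normalised counts from mitochondrially encoded genes, with 1 point for each of the 3 control (C) and 3 ascites (A) libraries. Control 1 and ascites 2 lie at one end of the axis (-25.8 and -21.7) and control 2 and ascites 3 at the other (22.7 and 17.1). Positions are relative to the mean of each group, so a shift between the groups does not show.

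Few genes passed the test between ascites and control. Of 15595 genes tested with limma on log2(value + 1), 10 rose (0.0641%) and 12 fell (0.0769%) at a Benjamini-Hochberg adjusted p under 0.05, together 22 (0.141%). On this log2 scale, which understates the change of low genes, the changes were 0.35 to 0.97 in size with a median of 0.57, and none of the 22 reached 1. A difference of at least 1 was measured for 72 genes, of which 0 were called. The 3 ascites libraries lay outside the range of the 3 controls for all 22 called genes and for 1819 of all tested genes (11.7%; 4.24% higher and 7.42% lower). Before adjustment, 1021 genes (6.55%) had a p under 0.05, 397 higher (2.55%) and 624 lower (4%), and the median log2 difference of all tested genes was -0.023. Scaling the libraries by TMM gave 17 higher (0.109%) and 13 lower (0.0834%), which turned the split from mostly lower to mostly higher. In bulk RNA, a lower count can mean fewer cells that express a gene or less RNA per cell, and these cannot be told apart.

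**Figure D2:**
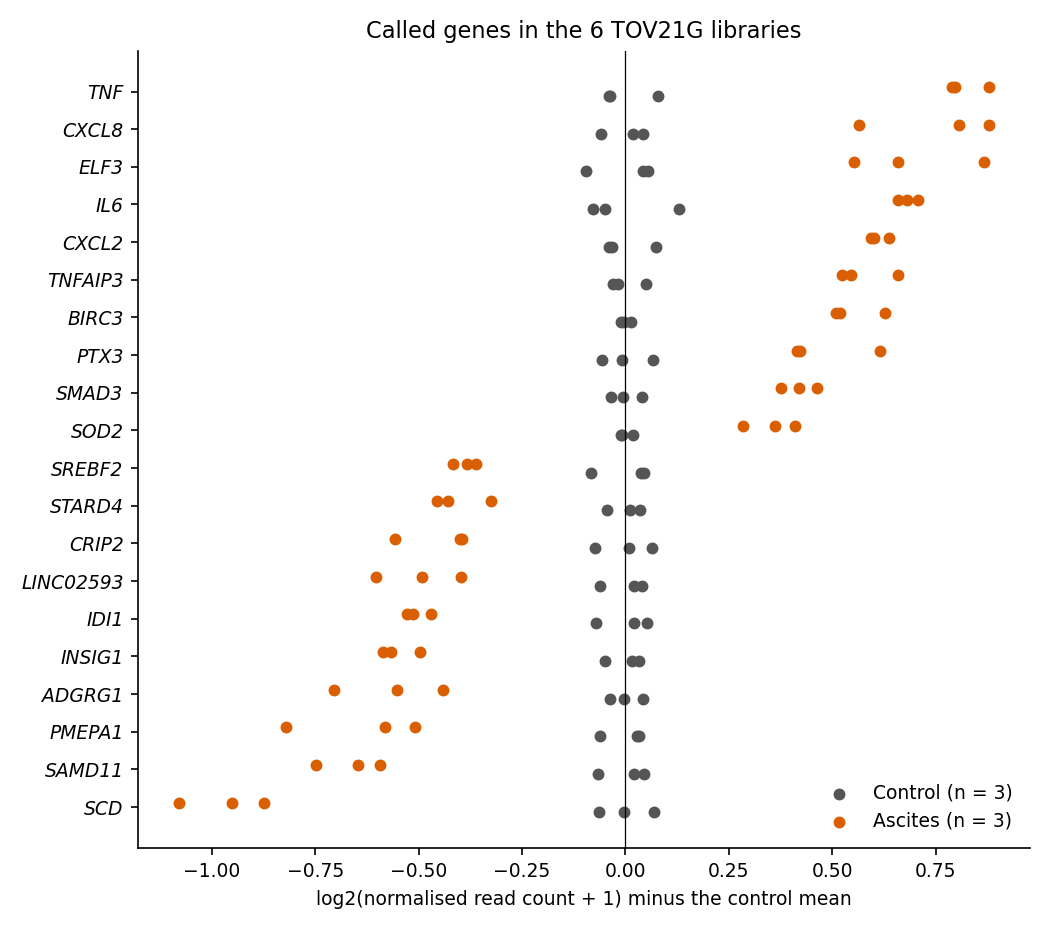
Values of 20 of the 22 called genes in each of the 6 libraries, as log2(normalised read count + 1) minus the mean of the 3 controls, with control libraries in grey and ascites libraries in orange. For each gene shown the 3 ascites points lie on one side of the 3 control points.

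The called cytokine genes were TNF, CXCL8, IL6 and CXCL2, and all rose. TNF, the cytokine that activates NF-kB (ENSG00000232810, chr6:31575567-31578336), had 293, 269 and 270 normalised counts in the controls and 482, 511 and 480 with ascites. All ascites libraries were well above all controls, and TNF rose 1.77-fold (log2 0.82 ± 0.07 SE, limma adjusted p 0.00144). IL6, an inflammatory cytokine (ENSG00000136244, chr7:22725884-22732002), had 572, 505 and 495 in the controls and 827, 839 and 855 with ascites, a rise of 0.68 ± 0.07 (adjusted p 0.00223). The neutrophil chemokine CXCL2 (chr4:74097035-74099293) had 476, 515 and 478 against 743, 762 and 738 and rose by 0.61 ± 0.06 (adjusted p 0.00223). CXCL8, interleukin-8, which draws neutrophils (chr4:73740506-73743716), had 178, 166 and 175 against 256, 303 and 319. Its ascites libraries were more spread than its controls, and it rose by 0.75 ± 0.10 (adjusted p 0.0171). The CXCL8 call was lost without control 3 (adjusted p 0.14), ascites 2 (0.0588) or ascites 3 (0.0984). When the spread was estimated over all 12 libraries of both lines, the calls of TNF (0.0869), IL6 (0.545), CXCL2 (0.414) and CXCL8 (0.15) were lost at unchanged fold changes.

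In the list of 30 chemokine and cytokine genes, 20 were tested, and 4 rose (those above; 0.0641% of all tested genes rose) and 0 fell. Of the 20, 17 had a log2 difference above 0, while 58.8% of all tested genes were below 0. The list median was 0.18, against -0.023 for all tested genes. This list and those below were chosen with earlier results of these data known. Their counts beside the shares of all tested genes are therefore descriptions and add no support. CSF1, the macrophage growth factor, had 2297, 2139 and 2190 in the controls and 2812, 3160 and 2636 with ascites, groups that did not overlap, but it did not pass (0.37, adjusted p 0.112). The CXCL2 paralogue CXCL3 (0.39, adjusted p 0.272) and the monocyte chemokine CCL2 (0.80, adjusted p 0.703) also did not pass. Without control 1 and ascites 2 the list had 7 calls, all higher (188 of all tested genes were called higher, 1.23%), and without control 2 and ascites 3 it had 3 (6 of all, 0.0399%).

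Of the NF-kB target list, BIRC3, TNFAIP3, PTX3, SOD2 and ELF3 rose. BIRC3, an inhibitor of apoptosis that ubiquitinates signalling proteins (ENSG00000023445, chr11:102317450-102339403), had 3159, 3109 and 3122 in the controls and 4486, 4832 and 4456 with ascites, a rise of 0.55 ± 0.05 (limma adjusted p 0.00148). Its controls differed little from each other. TNFAIP3, also named A20, a deubiquitinase that ends NF-kB signalling (chr6:137867188-137883312), had 1100, 1048 and 1040 against 1550, 1679 and 1528 and rose by 0.58 ± 0.06 (adjusted p 0.00223). The pentraxin PTX3, a secreted pattern recognition protein (chr3:157436789-157443628), had 1869, 1773 and 1715 against 2380, 2734 and 2391, with ascites 2 the highest, and rose by 0.48 ± 0.06 (adjusted p 0.0171). SOD2, the mitochondrial superoxide dismutase (chr6:159669057-159745186), had 3113, 3055 and 3051 against 3946, 4084 and 3741 and rose by 0.35 ± 0.05 (adjusted p 0.0259). ELF3, an epithelial ETS factor (chr1:202007945-202017188), had 179, 163 and 180 against 275, 318 and 255 and rose by 0.69 ± 0.10 (adjusted p 0.0323). BIRC3 and TNFAIP3 were called whichever single library was left out. PTX3 lost its call without control 3 (0.199) or ascites 1 (0.0727), SOD2 without control 2 (0.078), control 3 (0.34), ascites 1 (0.296) or ascites 2 (0.0617), and ELF3 without each library except control 1 (0.0551 to 0.221).

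Of the 29 tested members of the NF-kB target list, 5 rose (0.0641% of all tested genes), 0 fell, and 28 had a log2 difference above 0, while 58.8% of all tested genes were below 0. The list median was 0.21. This list too was chosen with earlier results of these data known. TNIP2 was the exception at -0.07. The members that did not pass included ICAM1, an adhesion molecule for leukocytes (1674, 1514 and 1447 against 2025, 2281 and 1906, 0.42, adjusted p 0.112). Others were the NF-kB subunits RELB (0.31, 0.217), REL (0.34, 0.716) and NFKB2 (0.30, 0.401). NFKBIZ (0.30, 0.114), NFKBIE (0.31, 0.199) and NFKBIA (0.21, 0.467), of the gene family named for NF-kB inhibitors, did not pass either. The groups did not overlap for 17 of the 29, all higher, as for 4.24% of all tested genes. DESeq2 on the recovered reads called 12 of the list higher (0.308% of all tested genes). The list had 14 calls without control 1 and ascites 2, where 1.23% of all tested genes were called higher and 1.05% lower. It had 2 calls without control 2 and ascites 3, where 0.0399% were called higher and 0.0599% lower. The count above 0 was also 28 under TMM scaling.

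Ascites is known to hold leukocytes, so their markers were looked at beside the cytokines. Of 22 leukocyte markers 5 were listed in the files and 3 were tested (CD14, FCER1G and CD8A), and none of the 3 was called. The summed level of the list was 65 to 73.6 normalised counts in the controls and 70.7 to 84.5 with ascites. LYZ was at 0 in all 6 libraries, and CD14 had 13, 8.39 and 11.7 in the controls and 13.3, 20.4 and 11.6 with ascites, so these groups overlapped. Of 10 mesothelial markers 6 were listed, with a sum of 816 to 911 in the controls and 830 to 881 with ascites, and CALB2 was at 0 in the ascites libraries. Of 14 fibroblast and endothelial markers 8 were listed, 3 were tested (COL1A1, COL1A2 and ACTA2) and none was called. Their list sum was 13670 to 14252 in the controls and 12192 to 12884 with ascites, ranges that did not overlap, and the 3 tested genes had differences of -0.08, -0.17 and -0.18. COL1A2 had the highest level, at 10509 to 11100 against 9491 to 9859, while COL3A1 was at 0 in all 6 libraries. The part of these markers in the results was not tested. Of 9 red cell markers 0 were listed.

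The called lipid genes, a minority of each lipid list, all fell. SCD, the desaturase that makes oleic acid (ENSG00000099194, chr10:100347124-100364834), had 1760, 1607 and 1674 normalised counts in the controls and 916, 868 and 794 with ascites. It had the largest change of the 22, to 51.1% of the control mean (fell by 0.97 ± 0.07 on the log2 scale, limma adjusted p 0.00033), and was called whichever library was left out. INSIG1, which holds SREBP in the endoplasmic reticulum and is itself an SREBP target (chr7:155297776-155310235), had 1350, 1274 and 1334 against 889.5, 934.5 and 879 and fell by 0.55 ± 0.06 (adjusted p 0.00223). IDI1, the isopentenyl diphosphate isomerase of the mevalonate pathway (chr10:1039152-1049170), had 2023, 1858 and 1980 against 1353, 1409 and 1367. It fell by 0.50 ± 0.05 (adjusted p 0.00263, and 0.0563 without control 3). SREBF2, which encodes the SREBP of the cholesterol genes (chr22:41833079-41907308), had 3258, 2999 and 3277 against 2437, 2472 and 2377 and fell by 0.39 ± 0.05 (adjusted p 0.0171). STARD4, a carrier of cholesterol between membranes (chr5:111496033-111512590), had 801, 832 and 847 against 614, 603 and 660 and fell by 0.40 ± 0.06 (adjusted p 0.0376). The last calls were the less firm: SREBF2 was lost without control 3 (0.242), ascites 1 (0.179) or ascites 3 (0.0984), and STARD4 without any library except control 1 (0.0682 to 0.464), under edgeR (0.0722) and under TMM scaling (0.0774).

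The cholesterol synthesis list leaned lower as a whole, with few calls. Of its 22 genes, all tested, 1 fell (IDI1) and 0 rose, 20 had a log2 difference below 0 (as had 58.8% of all tested genes), and the median was -0.19. At an unadjusted limma p under 0.05 13 of the 22 were lower, against 4% of all tested genes. Some lists without a called gene also leaned below 0. They included 30 of 30 ribosomal protein genes (median -0.08) and 17 of 18 unfolded protein response genes (-0.07). Among mitochondrially encoded genes it was 12 of 13 (-0.23). At the same unadjusted p, 0, 2 and 0 genes of these lists were lower. FDFT1, squalene synthase, had 2524, 2273 and 2431 in the controls and 1907, 1960 and 1719 with ascites, groups that did not overlap, and missed the threshold (-0.37, adjusted p 0.0872). MSMO1, a methylsterol oxidase (-0.34, 0.0982), and SQLE, squalene epoxidase (-0.35, 0.114), also missed it. DESeq2 called 6 of the 22 lower (0.289% of all tested genes). Without control 1 and ascites 2 the list had 8 calls, all lower (161 of all tested genes were called lower, 1.05%), and without control 2 and ascites 3 it had 1 (9 of all, 0.0599%).

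In the list of sterol uptake, transport and SREBP control, 5 of 19 tested genes fell (0.0769% of all tested genes) and 0 rose, among them INSIG1, STARD4 and SREBF2. The INSIG1 paralogue INSIG2 (0.04), the SREBP escort SCAP (-0.05) and the lysosomal cholesterol exporter NPC1 (0.00) had differences near 0, while SREBF1 (-0.27, adjusted p 0.156) and the lipase LIPG (-0.70, 0.189) were lower and did not pass. The list had 6 calls without control 1 and ascites 2 (1.05% of all tested genes were called lower) and 3 without control 2 and ascites 3 (0.0599%). Of the 24 genes of fatty acid synthesis and desaturation, SCD fell (0.0769% of all tested genes did), 0 rose and 21 had a difference below 0 (58.8% of all), with a median of -0.13. Fatty acid synthase FASN (-0.14, adjusted p 0.735), the acetyl-CoA carboxylase ACACA (-0.05, 0.881) and SCD5, a paralogue of SCD (-0.09, 0.828), did not pass. This list had 6 calls without control 1 and ascites 2 and 1 without control 2 and ascites 3. Targets of LXR, the sensor of oxidised sterols, had 0 calls in 7 tested genes and a median of -0.03.

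**Figure D3:**
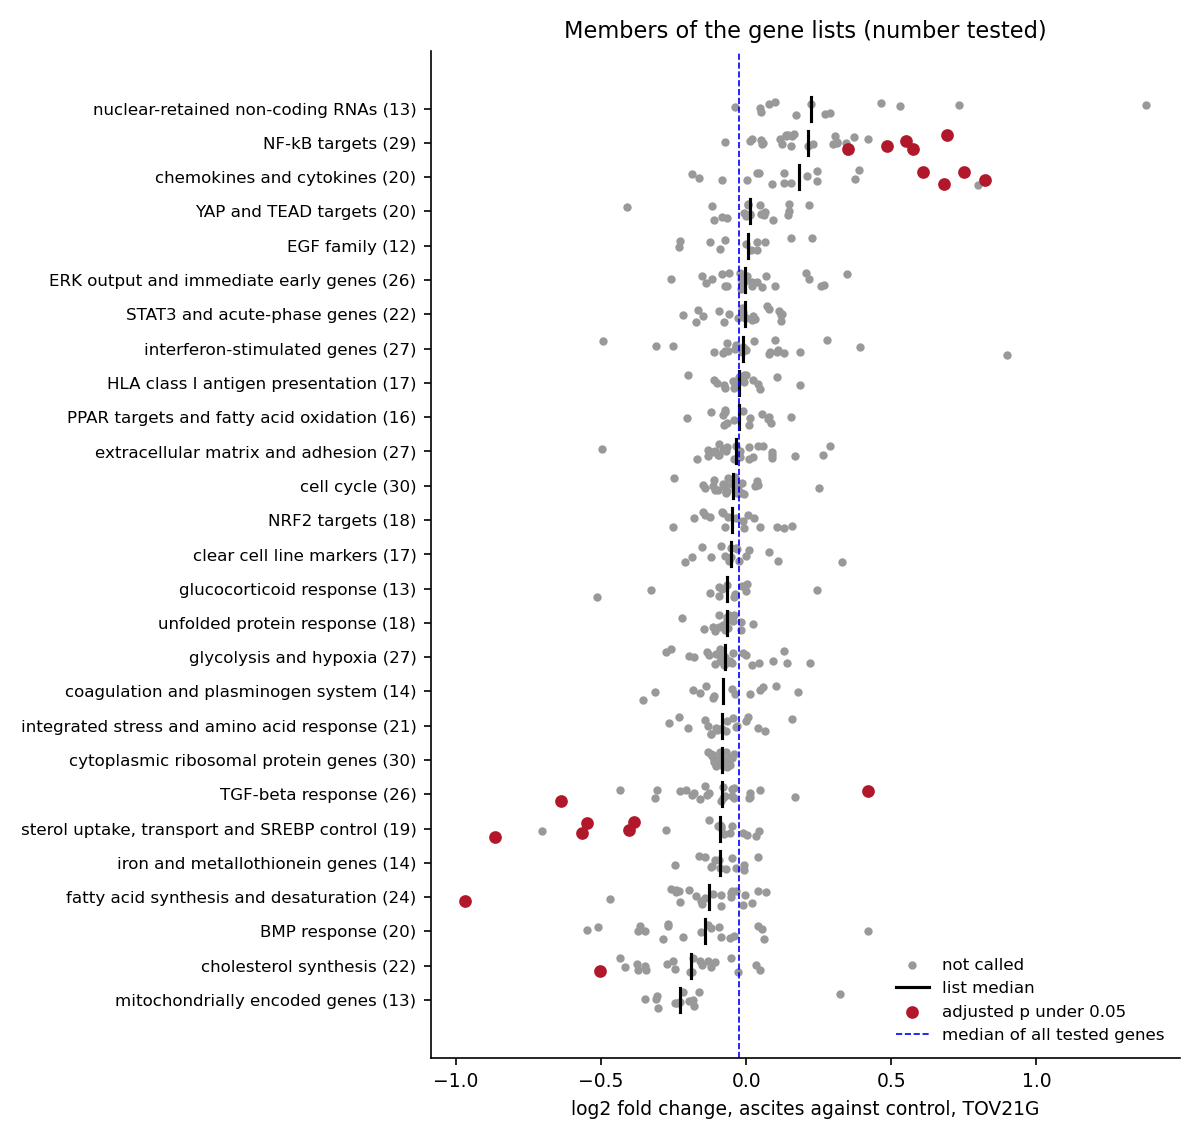
Log2 fold change of each tested member (points) of the gene lists with at least 10 tested genes, with the list median as a black bar, called genes in red and the median of all tested genes (-0.023) as a dashed line. The called NF-kB targets and cytokines lie to the right and the called sterol and fatty acid genes to the left, while most lists have no called gene.

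Of the TGF-beta response genes 1 rose and 1 fell. SMAD3, which carries the TGF-beta signal to the nucleus (chr15:67063763-67195195), had 3795, 4001 and 3877 normalised counts in the controls and 5364, 5049 and 5202 with ascites and rose by 0.42 ± 0.05 (limma adjusted p 0.00718). PMEPA1, a TGF-beta target that limits SMAD signalling (chr20:57648392-57711536), had 877, 822 and 874 against 572, 602 and 485 and fell by 0.64 ± 0.08 (adjusted p 0.0133). SMAD3 lost its call without control 3 (0.133) or ascites 1 (0.11), and PMEPA1 did so without control 3 (0.14) or ascites 1 (0.0727). Among the 26 tested TGF-beta response genes these were the calls (0.0641% of all tested genes were called higher and 0.0769% lower), and 20 had a difference below 0, as had 58.8% of all tested genes. The inhibitory SMAD7 (2155, 2080 and 2192 against 1684, 1857 and 1661) had groups that did not overlap and did not pass (-0.31, adjusted p 0.114).

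The BMP response list had 0 calls in 20 tested genes under limma and 0 under edgeR, while DESeq2 called 4 lower (0.289% of all tested genes), and 10 were lower at an unadjusted limma p under 0.05 (4% of all). Its median was -0.14 and 16 of 20 differences were below 0 (58.8% of all). ID3, a BMP-induced inhibitor of helix-loop-helix factors, had 14657, 12774 and 13315 in the controls and 10326, 11637 and 10050 with ascites (-0.35, adjusted p 0.191), and ID2 had 8403, 7426 and 7935 against 6422, 6847 and 6214 (-0.29, adjusted p 0.206). Neither gene's groups overlapped. Without control 1 and ascites 2 the list had 6 calls, all lower (1.05% of all tested genes were called lower). Without control 2 and ascites 3 it had 0 (0.0599% of all).

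The other called genes outside the lists all fell. SAMD11 (ENSG00000187634, chr1:923928-944581) had 3207, 2968 and 3152 in the controls and 1986, 2058 and 1850 with ascites, a fall of 0.66 ± 0.06 (limma adjusted p 0.00124), and was called whichever library was left out. The non-coding LINC02593 (chr1:916865-921016), which GENCODE release 29 places near SAMD11 on the opposite strand, had 982, 994 and 928 against 636, 734 and 687 and fell by 0.50 ± 0.07 (adjusted p 0.0171). ADGRG1, an adhesion G protein-coupled receptor also named GPR56 (chr16:57610652-57665580), had 7683, 7265 and 7435 against 5088, 5490 and 4576 and fell by 0.57 ± 0.07 (adjusted p 0.00718). CRIP2, a LIM domain protein (chr14:105472962-105480170), had 1934, 1760 and 1864 against 1406, 1403 and 1257 and fell by 0.45 ± 0.06 (adjusted p 0.0177). ADGRG1 lost its call without control 3 (0.106) or ascites 1 (0.0727). LINC02593 and CRIP2 lost theirs without control 3 (0.116 and 0.211), ascites 1 (0.137 and 0.103) or ascites 3 (0.0787 and 0.0771).

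Several pathways had no called gene. The STAT3 and acute-phase list had 0 calls in 22 tested genes and a median of -0.01, with STAT3 itself at 7221 to 7912 in the controls and 7726 to 8165 with ascites. Interferon-stimulated genes had 0 calls in 27 and a median of -0.01, and for both lists the count above 0 went from under to over that below 0 under TMM scaling (9 to 14 of 22, 11 to 16 of 27). Among the interferon genes IFI27 was low, with 8.67, 14.7 and 8.97 against 19.9, 17.7 and 24.2 (0.90 ± 0.32, adjusted p 0.698). Cell cycle genes had 0 calls in 30 and a median of -0.04, with 26 of 30 differences below 0, as had 58.8% of all tested genes. TOP2A, 1 of the 4 above 0, was at 12314 to 13544 in the controls and 13046 to 13622 with ascites. EREG, the EGF family ligand epiregulin, had 14154, 14040 and 14302 against 16544, 16999 and 16164, groups that did not overlap (0.23, adjusted p 0.341). PAX8, the Müllerian lineage factor, had 6797, 7309 and 6989 against 8749, 8464 and 9342 and missed the threshold (0.33, adjusted p 0.0974).

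The called genes varied little along the replicate axis. Their log2 change per SD of axis position had a median size of 0.0385 and a maximum of 0.0867, against a median of 0.0587 for all tested genes. The test itself favours genes with little spread between replicates. Over all 15595 genes the axis slope and the ascites difference had a Pearson correlation of 0.52, a description across genes that share the same 6 libraries. Low genes were the most variable: the median SD of log2 values in the controls was 0.337 in the fifth of genes with the lowest level, where 0 genes were called, and 0.0714 in the fifth with the highest, where 6 were called.

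**Figure D4:**
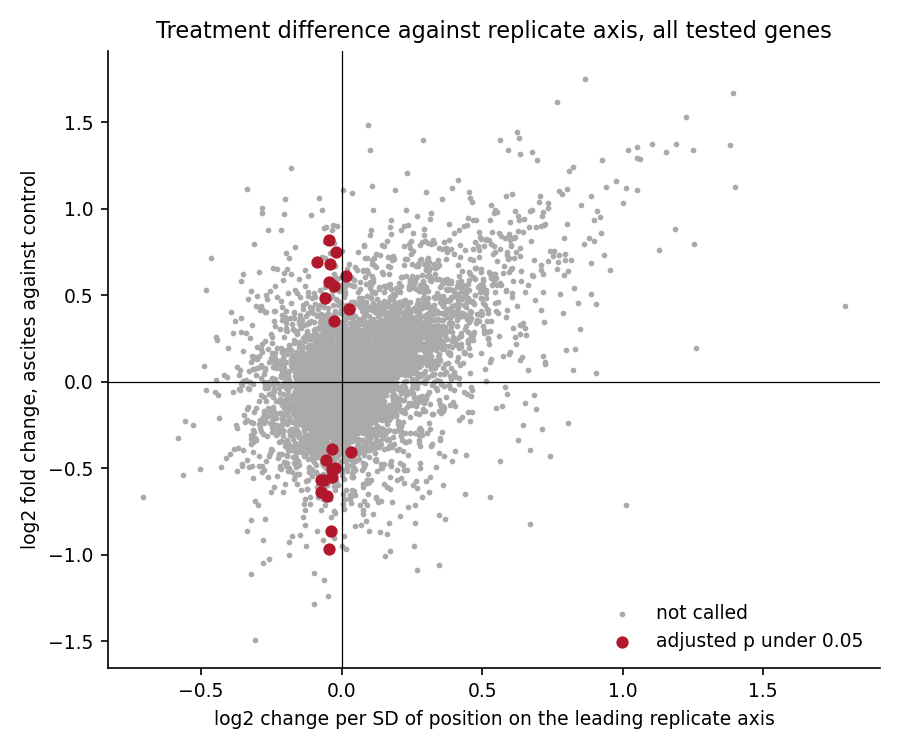
Log2 fold change, ascites against control, plotted against the log2 change per SD of position on the leading replicate axis, with 1 point for each of the 15595 tested genes and the 22 called genes in red. The called genes lie close to 0 on the axis, at most 0.0867 in size, while none of the 239 genes with a slope over 0.5 was called.

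The number of called genes depended on which libraries and which test were used. Of the 22 genes, 9 were called in all 6 fits that left out 1 library, among them SCD, SAMD11, INSIG1, TNF, IL6, CXCL2, BIRC3 and TNFAIP3. edgeR on the recovered reads called 21 of the 22 and DESeq2 all 22. Testing all 19251 listed genes without the filter on low values kept 5 of the 22 calls, and removing the trend with gene length and GC content lost CXCL8 (adjusted p 0.0718) and SOD2 (0.585). Leaving out control 3 gave 5 higher and 4 lower, and leaving out ascites 1 gave 6 and 6. Leaving out control 1 and ascites 2 together, the pair at one end of the axis, gave 188 higher and 161 lower, and kept all 22 calls. Leaving out control 2 and ascites 3 gave 6 and 9, and kept 15 of the 22 calls. The 7 lost included PTX3 (limma adjusted p 0.0587), SOD2 (0.0756), ELF3 (0.0769), STARD4 (0.12), LINC02593 (0.131) and CXCL8 (0.15). These 2 exclusions were chosen after the axis had been seen. The removed libraries lay far from their group means, so the spread used by the test can fall through that choice. The median SD of log2 values in the controls was 0.099, and 0.0655 without control 1. With ascites it was 0.0944, and 0.0606 without ascites 2. The 188 and 161 calls therefore add no support.

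**Figure D5:**
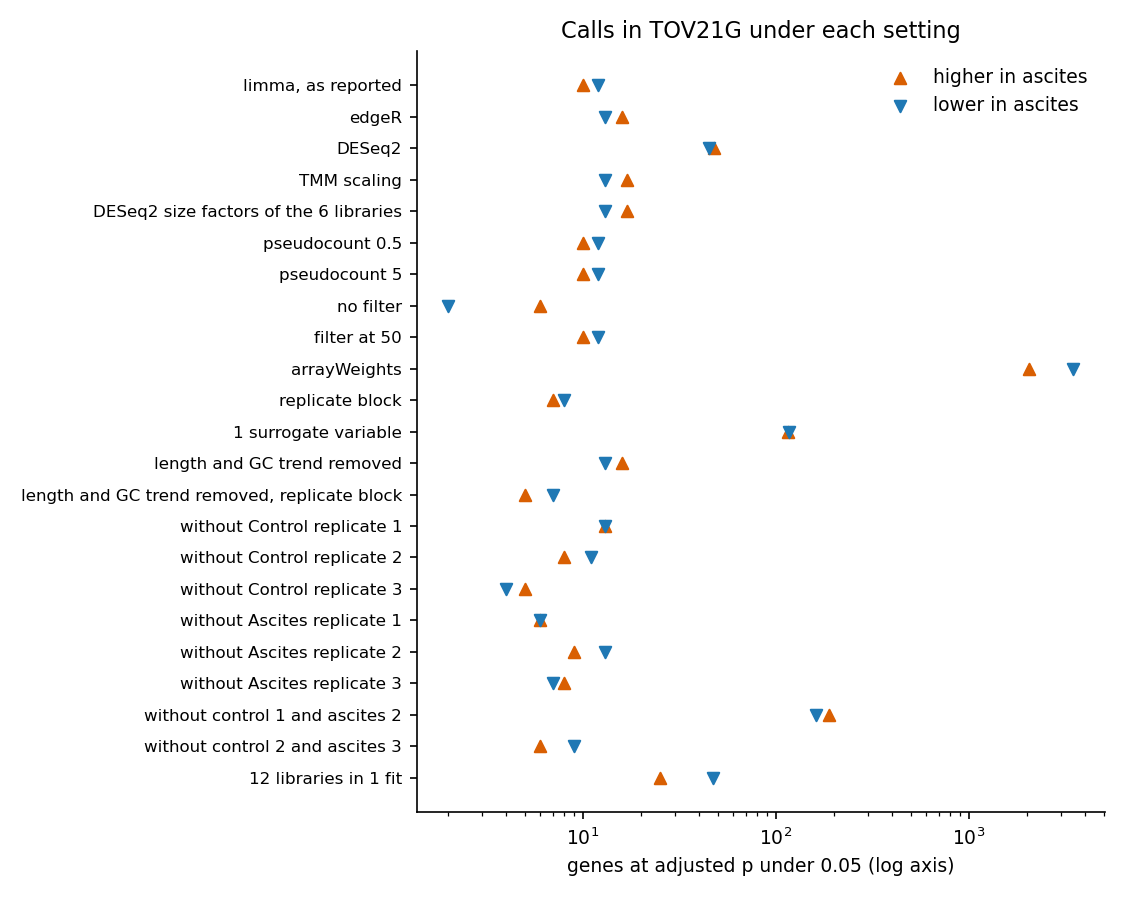
Number of genes at adjusted p under 0.05, higher (upward triangles) and lower (downward triangles) in ascites, on a log axis, for the reported limma fit and each alternative. The reported fit has 10 and 12, most settings lie between 2 and 48, and sample weights (2031 and 3469) lie far from the rest.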

How the data were processed

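RNA sequencing of 6 TOV21G libraries, 3 control and 3 ascites, gave 19251 genes per library. Per the submitters' processing notes, Trim Galore, cutadapt, STAR, HTSeq and DESeq were used; versions, genome build, annotation and strandedness are not given in the sources used here. The authors deposited a normalised signal, which the values showed to be reads over a library size factor: 100% of values lay within 0.1 of whole reads after division by 1 step per library. Whole reads were recovered for edgeR 4.0.16 and DESeq2 1.42.0. The main test was limma 3.58.1 (lmFit, eBayes with trend, R 4.3.3, two-sided, Benjamini-Hochberg adjustment) on log2(value + 1), over the 15595 genes with a value of at least 10 in at least 3 of the 6 libraries, called at an adjusted p under 0.05. Every pair of replicates differed beyond read sampling (chi-square per degree of freedom 3.89 to 22.6), so none was a copy of another; this does not show separate cultures, and each was taken as a replicate as labelled.

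The 32 gene lists and the members described were chosen with earlier results of these data known. Named genes were the 10 largest called rises and falls with a mean of at least 20 and groups that did not overlap, called list members, up to 2 genes of smallest p and 2 of highest level in lists without calls, the genes at the ends of the replicate axis and the cell type markers; other list members were named after their values were seen. Of the 22 called genes, 2 are counted everywhere but not reported here by name. Positions are those of GENCODE release 29 (GRCh38), matched by gene identifier. TNF, CXCL8, CXCL2, BIRC3, SCD, INSIG1, LINC02593 and CRIP2 overlap no other annotated gene there; reads of the other called genes named may include those of an overlapping gene. Alternatives covered scaling, pseudocount, filter, test, sample weights, a surrogate variable, gene length and GC content, replicate number and left-out libraries. The scripts were tested on simulated data.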

Additional observations from a re-analysis of the deposited data

How the results depend on the processing

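Against 10 genes higher and 12 lower, edgeR gave 16 higher, DESeq2 48 and 45, TMM scaling and DESeq2 size factors of the 6 libraries 17 higher each, no filter 6 and 2, a surrogate variable 116 and 117, removal of the length and GC trend 16 higher, and all 12 libraries in 1 fit 25 and 47. Pseudocounts of 0.5 and 5 and a filter at 50 gave the same counts as reported. Sample weights gave 2031 and 3469, with weights of 5.66 on control 3 and 5.88 on ascites 1 and 0.35 to 0.51 on the rest, and their fit stopped before it converged. Leaving out 1 library gave 5 to 13 higher and 4 to 13 lower. The exclusions chosen after seeing the data gave 188 and 161 (control 1 and ascites 2) and 6 and 9 (control 2 and ascites 3). The cause of these shifts was not tested. None of the 22 called genes changed direction under any of the 22 alternatives.

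Same-numbered libraries did not deviate together from their group means: the deviations correlated at -0.159, -0.495 and 0.055 across genes. Pairs of unlike number ranged from -0.438 (control 1 and ascites 3) to 0.508 (control 1 and ascites 2), with 0.432 for control 2 and ascites 3. These values cannot show whether same-numbered samples were handled together. With the replicate number as a block 7 genes were higher and 8 lower, and 15 of the 22 kept their call. With the length and GC trend also removed there were 5 and 7.

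The 1021 genes at an unadjusted p under 0.05 became 7168 with sample weights, 1600 with the surrogate variable, 673 with the trend removed and the replicate block, 1615 with 12 libraries, 1961 without control 1 and ascites 2, and 521 to 2172 when 1 library was left out. The median within-group SD was 0.099 in controls (0.0655 without control 1 to 0.111 without control 3) and 0.0944 with ascites (0.0606 without ascites 2 to 0.107 without ascites 1). The replicate axis held 54.3% of the variance, 67.7% with a filter at 50, and 54.4% to 64.5% when 1 library was left out. With 3 libraries per group, the 3119 tested genes of lowest level had a median SE of 0.314 on the log2 scale, against 0.0602 for the 3119 of highest level, so small changes of low genes were not detectable.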

Other observations

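Non-coding transcript classes lay towards the end of control 2 and ascites 3 on the replicate axis. Of 149 tested sense intronic transcripts 83.9% had a slope above 0, of 615 lincRNAs 61.1%, and of 12623 protein-coding genes 30.4%. The sense intronic class also had a median ascites difference of 0.28, with 0 genes called in either direction, against -0.03 for protein-coding genes. IFNE, an epithelial interferon gene, followed the axis, with 24.9, 124 and 57.4 normalised counts in the controls and 132, 54.9 and 236 with ascites, groups that overlapped.

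Some genes had no read in any control library and at least 1 read in every ascites library. There were 10 of these, and AGR2, a secretory pathway protein of mucosal epithelia, had the most reads (7, 2 and 2). None of the 10 passed the filter on low values of the 6-library fit. In the fit of all 12 libraries, where the spread is estimated over both lines, limma called AGR2 (adjusted p 0.0052), H2BC13 (0.0226) and NRG4 (0.0427) higher. These genes passed the filter of that fit only with the values of the other line. H2BC13 had 3, 3 and 3 reads in the ascites libraries and NRG4 1, 1 and 1. The 10 genes were picked by the same values that this fit compares, so its calls add no support.

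The order of the rows in the deposited TOV21G tables followed the strength of the ascites difference. Across the 15595 tested genes, row position and the limma p had a Spearman correlation of 0.965, a description across genes of the same libraries, and 19 of the first 22 tested genes in row order were also among the 22 of smallest p. How the order arose is not given in the sources used here.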
